A study of Mus musculus with 34 samples.

Results

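Cytochrome P450 enzymes of families 1 to 4 were represented by 65 genes among the 48278 genes of the hepatic expression table. They were chosen by symbol (Cyp, a family digit from 1 to 4, a subfamily letter and a number) and by a level of at least 1 FPKM (fragments per kilobase of gene and per size of library) in any of the 10 libraries of that table. Their highest level in these libraries was therefore used in the choice. Of 80 genes with such a symbol, 15 stayed under 1 FPKM in every library. Just inside the threshold were Cyp4f18, with a highest value of 1.13 FPKM, and Cyp2c66, at 1.42 FPKM. Just outside were Cyp2b19 at 0.969 FPKM and Cyp2j8 at 0.664 FPKM.

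P450 enzymes are heme proteins of the endoplasmic reticulum that oxidise lipophilic compounds with electrons delivered by the reductase Por. Families 1 to 3 are best known in liver for the oxidation of drugs, toxins and steroids, and family 4 for the oxidation of fatty acids and eicosanoids. In mouse liver many of them are induced by ligand-activated receptors, differ along the axis from portal to central vein, or differ between the sexes, and a smaller number are found mainly in epithelia outside the liver.

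Poly-A RNA was sequenced in 34 mouse libraries from a study in which embryonic fibroblasts were brought by chemicals to a state resembling extraembryonic endoderm (XEN-like) and from there to hepatocyte-like or neuronal cells. In the hepatic table, hepatocyte-like cells had 4 libraries, while hepatocytes, liver tissue (called tissue here) and embryonic fibroblasts had 2 libraries each. The library P24, labelled as neuronal cells of XEN-like origin, had a table to itself. The XEN-like table comprised colonies (8 libraries), the lines F25 (3 libraries, at passages 5, 8 and 13) and s39 (2 libraries, at passages 3 and 17), a chemically derived eXEN culture (1 library) and fibroblasts (2 libraries), and the neuronal tables comprised 7 libraries. All of these carry the strain label Mapttm2(EGFP)Klt/J, which places an EGFP reporter in the Mapt (tau) gene, except the primary cortical neurons, which were labelled C57BL/6. The labels used here give no age, sex, agent, dose or day of culture, and they do not say whether the libraries of a group came from separate animals or cultures. The p-values below thus measure the spread between libraries, which may be technical.

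The apparent depth, read from the lowest values of single-exon genes, was 7900000 to 13000000 fragments in the hepatic libraries, an estimate that can be wrong by up to 2 times. An exact 0 can be a failed estimate in these tables. Alb, the albumin gene that every liver library would hold, was at 51325 and 44788 FPKM in hepatocytes 2 and tissue 1, and was listed at 0 in hepatocytes 1 and tissue 2. The hepatocyte-like libraries held hepatocyte markers (10 genes, summed level 1466 to 7810 FPKM) at lower levels than hepatocytes (34755 and 73933 FPKM) and tissue (72759 and 35356 FPKM), while fibroblasts held 52.9 and 40.2 FPKM. Of the 5 cholangiocyte markers, 4 or 5 reached 1 FPKM in each hepatocyte-like library (summed level 1075 to 2949 FPKM), where the summed level was 0.542 and 1.22 FPKM in hepatocytes and 8.94 and 3.89 FPKM in tissue. Fibroblasts held 2954 and 3407 FPKM of the same list, nearly all of it Spp1 (2952 and 3402 FPKM), of which hepatocyte-like libraries had 3.73 to 134 FPKM. Of the 6 XEN markers, 4 to 6 reached 1 FPKM (summed level 72.1 to 819 FPKM, against at most 17.1 FPKM in the liver libraries, and 59.8 and 122 FPKM in fibroblasts, which overlap the hepatocyte-like range). In bulk RNA, fewer cells of a type and less RNA per cell cannot be told apart.

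**Figure D1:**
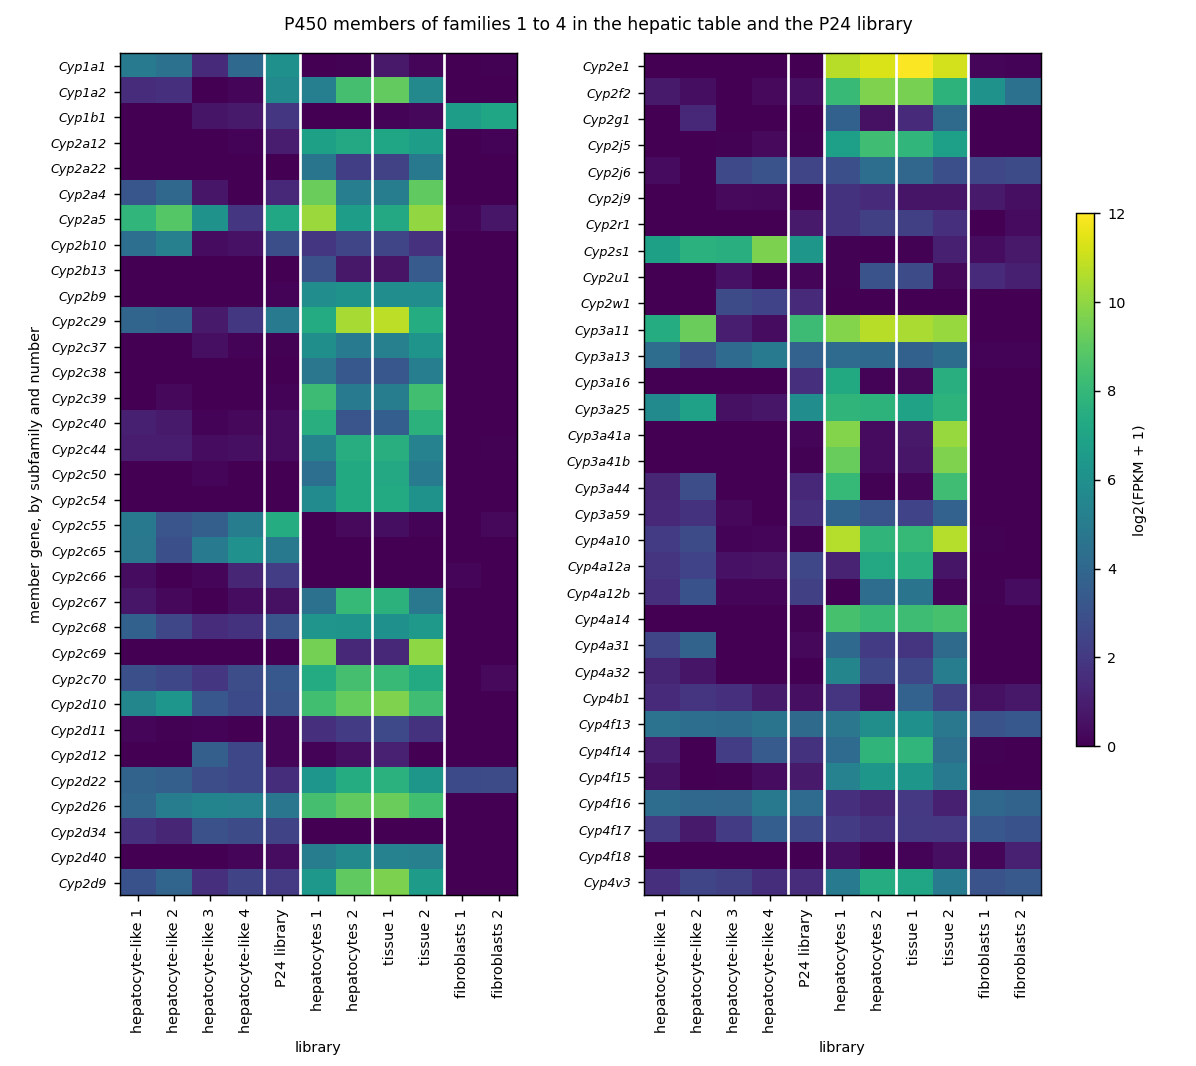
Level of each of the 65 P450 members as log2(FPKM + 1), with genes in rows, libraries in columns and white lines between the groups. The 4 hepatocyte-like libraries and the P24 library share bright rows such as Cyp2s1, Cyp2c55 and Cyp2c65 that are dark in hepatocytes and tissue, while Cyp2e1 is bright in the 4 liver libraries and dark in every other column.

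The members lie mostly in tandem clusters. In the GENCODE vM21 annotation of mm10, 15 members of subfamily Cyp2c lie on chromosome 19 (39007019 to 44029208), 8 of Cyp2d on chromosome 15 (82370527 to 82794294), 8 of Cyp3a on chromosome 5 (137892932 to 146113287) and 6 of Cyp4a on chromosome 4 (115299046 to 115621602). Close copies can share reads. Cyp3a41a shared 90.8% and Cyp3a41b 88.2% of its 100-base transcript windows with transcripts of other genes, so how their reads were divided is uncertain. The share was 41.7% for Cyp2c40, 36.3% for Cyp2c69, 36.2% for Cyp4a12b and 35.8% for Cyp4a12a. It was 12.9% for Cyp2a5 and 11.2% for Cyp2a4, and 22 of the 65 members shared no window.

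Promoters are shown for 5 members on which the results below turn. Cyp2e1 was the highest member in each liver library and was listed at 0 in every hepatocyte-like library. Cyp2a5 and Cyp2a4 have near-identical promoters and unequal levels in hepatocyte-like cells, and Cyp3a11 and Cyp3a41a are members of 1 cluster that behaved differently among the liver libraries. Each run is the 250 bases before the RefSeq start (GRCm38.p6), 5′ to 3′ on the gene's strand. Capitals mark matches on either strand to TATAAA, the letters of the box bound by TBP, or to CAAAGTCCA, a site of HNF4. They also mark matches to GTTAAT, a part of the HNF1 site, and none of these matches overlap one another.
Cyp2e1 (chr7:140763569-140763818, plus strand): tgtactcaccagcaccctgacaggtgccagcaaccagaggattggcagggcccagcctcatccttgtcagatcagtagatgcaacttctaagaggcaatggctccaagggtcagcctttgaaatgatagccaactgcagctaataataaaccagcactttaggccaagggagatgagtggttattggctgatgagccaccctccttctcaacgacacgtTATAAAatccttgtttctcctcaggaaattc
Cyp2a5 (chr7:26835089-26835338, plus strand): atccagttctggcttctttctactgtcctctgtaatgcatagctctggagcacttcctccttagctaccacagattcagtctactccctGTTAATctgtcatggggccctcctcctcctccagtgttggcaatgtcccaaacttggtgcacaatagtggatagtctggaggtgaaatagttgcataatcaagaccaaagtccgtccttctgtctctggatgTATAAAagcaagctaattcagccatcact
Cyp2a4 (chr7:26306942-26307191, plus strand): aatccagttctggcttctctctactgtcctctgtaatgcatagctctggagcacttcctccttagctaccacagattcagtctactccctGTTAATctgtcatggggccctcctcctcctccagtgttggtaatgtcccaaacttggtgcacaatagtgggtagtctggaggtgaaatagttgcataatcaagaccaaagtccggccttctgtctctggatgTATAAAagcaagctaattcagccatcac
Cyp3a11 (chr5:145879855-145880104, minus strand): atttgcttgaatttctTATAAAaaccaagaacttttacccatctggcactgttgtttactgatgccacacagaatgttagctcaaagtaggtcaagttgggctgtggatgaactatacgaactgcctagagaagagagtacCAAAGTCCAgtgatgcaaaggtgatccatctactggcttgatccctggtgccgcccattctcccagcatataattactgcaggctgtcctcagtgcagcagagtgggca
Cyp3a41a (chr5:145720137-145720386, minus strand): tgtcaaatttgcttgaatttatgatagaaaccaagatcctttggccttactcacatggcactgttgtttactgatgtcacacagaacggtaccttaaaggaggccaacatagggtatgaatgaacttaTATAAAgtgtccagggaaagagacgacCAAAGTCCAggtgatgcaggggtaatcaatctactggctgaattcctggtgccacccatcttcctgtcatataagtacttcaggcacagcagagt

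RefSeq promoters of this kind were found for 52 of the 65 members. The first transcript base in GENCODE vM21 lies upstream of the RefSeq start by 80 bases for Cyp2e1, 34 for Cyp2a5, 23 for Cyp2a4 and 110 for Cyp3a11, and the starts coincide for Cyp3a41a. TATAAA was found in 26 of the 52 members (14.3% of all 27025 genes with such a promoter), CAAAGTCCA in 10 (0.451% of all genes) and GTTAAT in 8 (7.49% of all genes). GCGTG, the core recognised by the Ah receptor, was found in 9 (30.9% of all genes), and TTCNNNGAA, recognised by STAT5, in 2 (8.13% of all genes). The windows of Cyp2a5 and Cyp2a4 were 97.6% identical, those of Cyp3a41a and Cyp3a41b 99.6%, and those of Cyp3a11 and Cyp3a41a 71.7%. Counted from the RefSeq start, TATAAA began at -31 in Cyp2e1, -29 in Cyp2a5 and -28 in Cyp2a4. It lay further upstream in Cyp3a11 (-234) and Cyp3a41a (-122). A match is a string of letters, and its use in these cells was not measured.

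The summed level of the members was far lower in hepatocyte-like cells than in liver. It was 887, 1737, 457 and 1101 FPKM in hepatocyte-like libraries 1 to 4 (1046 ± 533, SD, n = 4), 1082 FPKM in the P24 library, 12067 and 12143 FPKM in hepatocytes, 14118 and 13647 FPKM in tissue, and 225 and 212 FPKM in fibroblasts. Every hepatocyte-like library lay under every liver library and over both fibroblast libraries. Scaling by median ratios widened the gap, to means of 692 FPKM in hepatocyte-like cells, 20259 FPKM in hepatocytes and 24087 FPKM in tissue. The members made up 0.0612% to 0.209% of the summed FPKM of all genes in hepatocyte-like libraries and 1.51% to 1.91% in liver libraries. The leading members differed as well. Cyp2a5 led in hepatocyte-like library 1 (26.4% of the members' sum), Cyp3a11 in library 2 (35.3%), and Cyp2s1 in libraries 3 (39.7%) and 4 (71.1%). Cyp2e1 led in all 4 liver libraries (14.1% to 27.5%), and Cyp1b1 led in both fibroblast libraries (45.4% and 63.2%).

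**Figure D2:**
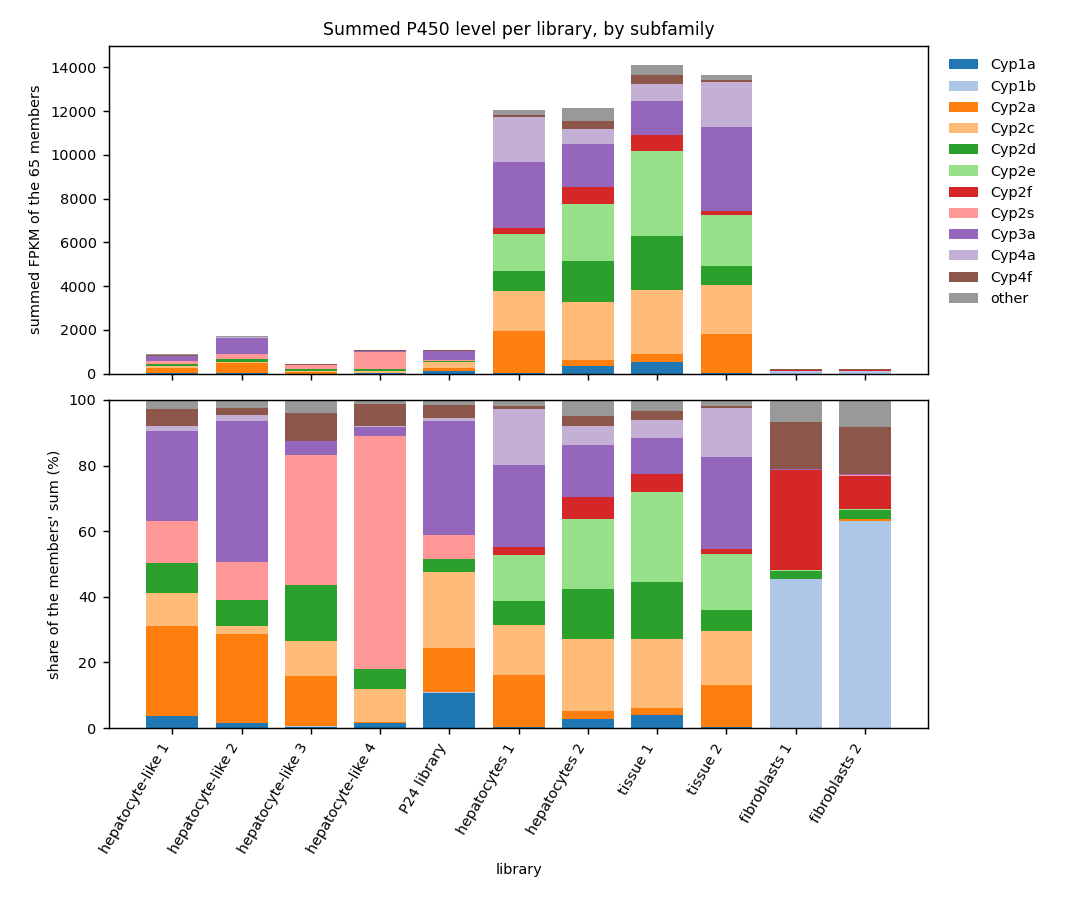
Summed FPKM of the 65 members in each library, split by subfamily (upper panel), and each subfamily's share of that sum in percent (lower panel). The bars of the hepatocyte-like libraries reach 457 to 1737 FPKM against 12067 to 14118 FPKM in liver, and the Cyp2s share takes 11.8% to 71.1% of the hepatocyte-like sums and is too small to see in liver.

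At 1 FPKM or more in at least 1 library, 38 members were found in hepatocyte-like cells, 33 in the P24 library, 55 in hepatocytes, 56 in tissue and 10 in fibroblasts. Of these, 32 were found in both hepatocyte-like and liver libraries, 23 reached the level in liver libraries alone, and 6 in hepatocyte-like cells alone, leaving P24 aside. Only 16 members reached 1 FPKM in every hepatocyte-like library, and 13 were listed at 0 in all 4 of them. The mean of hepatocyte-like cells was under 1% of the hepatocyte mean for 27 members, 1% to 10% for 17, 10% to 100% for 7, and above the hepatocyte mean for 14.

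Hepatocyte-like cells were compared with hepatocytes and with tissue to ask how close their P450 profile came to liver. Of the 63 members that passed the filter on low values, 6 were called higher and 34 lower in hepatocyte-like cells than in hepatocytes, and 6 higher and 35 lower than in tissue. Over all 15657 genes tested, 41.3% were called higher and 7.54% lower against hepatocytes, and 42.3% higher and 7.94% lower against tissue. The median log2 difference of the members was -3.83 against hepatocytes and -3.88 against tissue, beside medians over all genes of 0.94 and 0.96. Calls needed an adjusted p under 0.05 together with a difference of 1 or more, up or down, and differences are on the scale of log2(FPKM + 1), which understates the change of low genes. The choice of members by their highest level in these same libraries favours genes that are high in liver, so these counts are a description. It also admits genes that are high in hepatocyte-like cells alone. Of the 6 called higher, Cyp1a1, Cyp2c55, Cyp2c65 and Cyp2d34 reached 1 FPKM in no liver or fibroblast library. The choice favours their calls, so their levels are given as a description. Scaling by median ratios brought the medians of all genes to 0.03 against both, and the calls over all genes to 2397 higher and 2325 lower (hepatocytes) and 2354 higher and 2627 lower (tissue), where 6468 higher and 1181 lower and 6624 higher and 1243 lower had been called. That is 15.6% of genes higher and 15.2% lower against hepatocytes, and 15.3% higher and 17.1% lower against tissue. The members called were then 6 higher and 38 lower, and 6 higher and 39 lower. Hepatocytes and tissue shared a flow cell that held no other group, so flow cell and group cannot be told apart here.

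All 4 hepatocyte-like libraries lay below all 4 liver libraries for 42 of the 63 members that reached 1 FPKM in these groups, and above them for 6. Over the 16099 genes at that level, 8.4% lay below and 46.7% above. After scaling, 43 members lay below and 5 above (all but Cyp1a1), beside 18.9% and 21.3% of these genes.

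**Figure D3:**
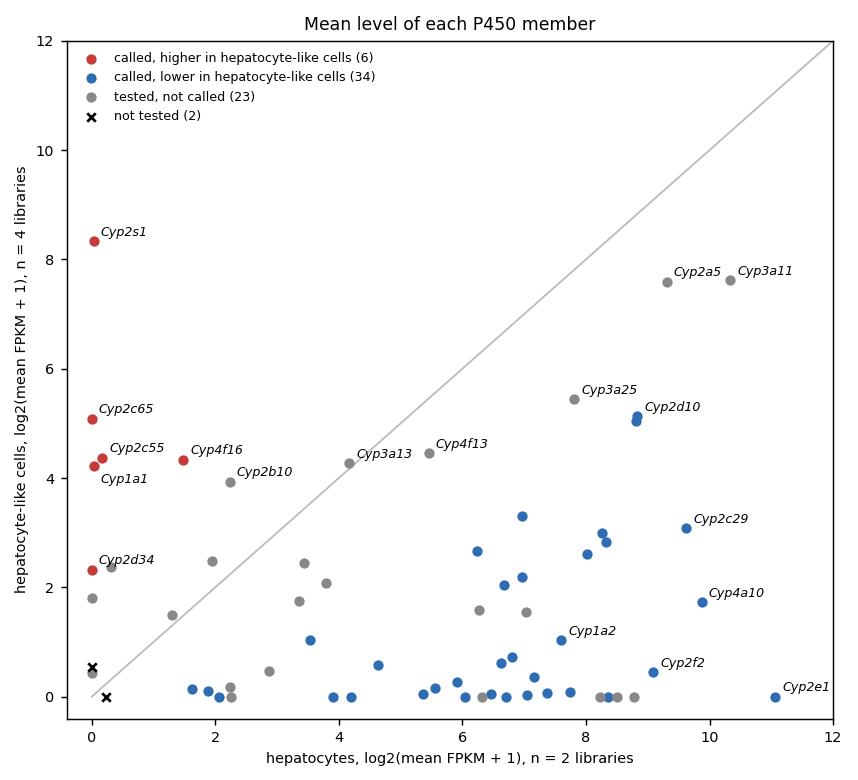
Mean level of each member in hepatocyte-like cells (vertical axis, n = 4 libraries) and in hepatocytes (horizontal axis, n = 2 libraries), both as log2(mean FPKM + 1), with equal levels on the grey line. The 6 members called higher stand at the upper left, the 34 called lower lie well under the line, and Cyp3a13 sits on it.

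The P450s taken as label genes, Cyp2e1, Cyp3a11 and Cyp3a13, each showed a different pattern. Cyp2e1 (chromosome 7, 140763739 to 140774987), which oxidises ethanol and acetaminophen, was listed at 0 in all 4 hepatocyte-like libraries and in the P24 library. It was at 1700 and 2582 FPKM in hepatocytes, 3876 and 2316 FPKM in tissue, and 0.113 and 0.0823 FPKM in fibroblasts. The groups were far apart, with a fitted difference of -11.03 against hepatocytes, which is no bound on the fold since the lower group is listed at 0. Cyp2e1 reached 1 FPKM in liver libraries alone, so its levels are a description and no p is given. Cyp3a11 (chromosome 5, 145854426 to 145879964), the main PXR-induced drug oxidase of mouse liver, was at 169, 613, 1.03 and 0.326 FPKM in hepatocyte-like libraries 1 to 4 and at 300 FPKM in the P24 library. Hepatocytes held 883 and 1696 FPKM, tissue 1423 and 1119 FPKM, and both fibroblast libraries were listed at 0. Libraries 1 and 2 came within the same order of magnitude as liver while libraries 3 and 4 were near 1 FPKM. The differences from hepatocytes (-5.73 ± 2.23, SE, adjusted p = 0.0551) and fibroblasts (4.52 ± 2.23, adjusted p = 0.165) did not pass. Without library 2 the difference from hepatocytes was -7.31 with an adjusted p of 0.00901, and without library 1 it was -6.70 with an adjusted p of 0.0372. Median-ratio scaling gave -6.87 with an adjusted p of 0.0328.

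Cyp3a13 (chromosome 5, 137892932 to 137921619), a Cyp3a enzyme of intestine and liver, was at 18.8, 6.93, 17.2 and 30.4 FPKM in hepatocyte-like cells and 12.9 FPKM in the P24 library. It was at 17.4 and 16.4 FPKM in hepatocytes, 12.3 and 18.2 FPKM in tissue, and 0.0989 and 0.0803 FPKM in fibroblasts. The hepatocyte-like range enclosed the liver values, and the difference was -0.05 ± 0.48 against hepatocytes (adjusted p = 0.943) and 3.99 ± 0.48 against fibroblasts (adjusted p = 0.000282). After scaling it was at 4.49 to 21.0 FPKM in hepatocyte-like cells against 19.4 to 34.5 FPKM in the liver libraries, so that only the highest hepatocyte-like library reached the liver range, and the difference from hepatocytes was -1.30 (adjusted p = 0.0755). A p that misses the threshold does not show equal levels. Cyp3a25, another liver Cyp3a gene, followed Cyp3a11 with 53.3, 115, 0.473 and 0.650 FPKM in hepatocyte-like cells against 231 and 215 FPKM in hepatocytes and 119 and 218 FPKM in tissue (difference from hepatocytes -4.33 ± 1.65, adjusted p = 0.0522). It too was called lower without library 1 (adjusted p = 0.0325), without library 2 (0.0103) and under scaling (0.0238).

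Of the 6 members of the extrahepatic role list that passed the filter, 3 were higher in hepatocyte-like cells than in both liver groups, beside 41.3% and 42.3% of all genes, and Cyp4b1 was lower than in tissue. After scaling it was again 3, beside 15.6% and 15.3% of all genes. These 3, Cyp2s1, Cyp2c55 and Cyp2c65, passed the filter through hepatocyte-like libraries alone, so the count is a description. The 6 members higher in hepatocyte-like cells than in both liver groups were Cyp2s1, Cyp2c65, Cyp2c55, Cyp1a1, Cyp2d34 and Cyp4f16. Cyp2s1 (chromosome 7, 25802475 to 25816913), a P450 of epithelia outside the liver, was at 112, 205, 181 and 783 FPKM in hepatocyte-like cells and 80.0 FPKM in the P24 library. In hepatocytes it was at 0.0447 FPKM in library 1 and listed at 0 in library 2, in tissue at 0.0407 and 1.09 FPKM, and in fibroblasts at 0.334 and 0.746 FPKM. All 4 hepatocyte-like libraries were above all others, with fitted differences of 7.88 against hepatocytes, 7.35 against tissue and 7.30 against fibroblasts. Of the liver and fibroblast libraries only tissue 2 reached 1 FPKM. Cyp2s1 thus passed the filter through hepatocyte-like cells, and no p is given. Cyp2c65 (chromosome 19, 39061015 to 39093944), an arachidonic acid oxidase of the intestine, was at 26.8, 6.73, 31.3 and 66.8 FPKM in hepatocyte-like cells and 28.2 FPKM in the P24 library. It was listed at 0 in all 6 liver and fibroblast libraries. The neighbouring Cyp2c55 (39007019 to 39042693), known from the colon, was at 27.5, 7.95, 11.5 and 32.0 FPKM in hepatocyte-like cells and 172 FPKM in the P24 library. No hepatocyte, tissue or fibroblast library exceeded 0.349 FPKM.

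Of the intestinal markers, Cdx2, Vil1 and Cdh17 reached 1 FPKM in every hepatocyte-like library and in no liver or fibroblast library. Fabp2 and Cdx1 did not follow this pattern. Of the 6 on that list 5 were listed in the table, and 4 of them reached 1 FPKM in each hepatocyte-like library (summed level 60.8 to 299 FPKM). In the liver libraries 1 of them, Fabp2, reached 1 FPKM (summed level 129 and 17.4 FPKM in hepatocytes, 22.3 and 183 FPKM in tissue), and none did in fibroblasts. Fabp2 was at 14.3, 5.41, 24.9 and 104 FPKM in hepatocyte-like cells, against 129 and 16.95 FPKM in hepatocytes and 22.3 and 183 FPKM in tissue, with overlapping ranges. Cdx2, the defining regulator of the list, was at 14.4, 6.53, 22.1 and 35.3 FPKM in hepatocyte-like cells and listed at 0 in every liver and fibroblast library, while Cdx1 was at or near 0 in all of them. Among the hepatocyte-like libraries, Fabp2, Cdx2, Cyp2c55 and Cyp2c65 were lowest in library 2 and highest in library 4. Cyp2s1 was highest in library 4 too, but lowest in library 1. Any part of intestinal cells in the levels of Cyp2s1, Cyp2c55 and Cyp2c65 was not tested.

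Cyp1a1 (chromosome 9, 57687928 to 57703824), which oxidises polycyclic aromatic hydrocarbons and is induced through the Ah receptor, was at 30.0, 22.3, 1.79 and 16.1 FPKM in hepatocyte-like cells and 64.1 FPKM in the P24 library. It did not exceed 0.772 FPKM in liver or fibroblasts. Cyp2d34 was at 2.14, 1.42, 6.86 and 5.61 FPKM in hepatocyte-like cells and listed at 0 in all liver and fibroblast libraries. Cyp4f16, of a subfamily that oxidises fatty acids and leukotrienes, was at 18.7, 15.2, 14.5 and 28.3 FPKM against at most 2.98 FPKM in liver (2.82 ± 0.37 against hepatocytes, adjusted p = 0.000297), but fibroblasts held 15.8 and 13.2 FPKM as well. For Cyp4f16 the hepatocyte-like and fibroblast ranges overlapped. Of the other extrahepatic members, Cyp2w1 reached 5.60 FPKM and Cyp2c66 1.42 FPKM in hepatocyte-like cells and both were listed at 0 in the liver libraries, and Cyp4b1, an oxidase of lung and kidney, was at 1.76, 2.66, 2.03 and 0.853 FPKM in hepatocyte-like cells against 2.58 and 0.323 FPKM in hepatocytes and 12.5 and 3.88 FPKM in tissue.

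By role, the liver P450s were mostly low. Of the 7 pericentral members, expressed around the central vein, 5 were lower in hepatocyte-like cells than in hepatocytes and the same 5 than in tissue, beside 7.54% and 7.94% of all genes, and none was higher. After scaling Cyp3a11 joined them in both, beside 15.2% and 17.1% of all genes. The 5 were Cyp2e1, Cyp1a2, Cyp2c29, Cyp2c37 and Cyp2c50 (median difference of the 7, -5.79 against hepatocytes). Of these, Cyp2e1, Cyp2c37 and Cyp2c50 reached 1 FPKM in liver libraries alone. The choice favours their calls, so the count is a description. Cyp2c29, an abundant hepatic epoxygenase, was at 14.1, 12.2, 0.826 and 2.82 FPKM in hepatocyte-like cells against 168 and 1400 FPKM in hepatocytes and 1798 and 173 FPKM in tissue. Cyp1a2, which oxidises caffeine and arylamines, was at 1.92, 2.11, 0 and 0.139 FPKM in hepatocyte-like cells against 35.8 and 350.0 FPKM in hepatocytes and 547 and 48.8 FPKM in tissue (-5.99 ± 1.07 against hepatocytes, adjusted p = 0.00154). Cyp2c37 did not exceed 0.402 FPKM in hepatocyte-like cells, against 61.8 and 29.8 FPKM in hepatocytes and 36.8 and 72.9 FPKM in tissue. Cyp2c50 did not exceed 0.130 FPKM, against 19.6 and 156 FPKM in hepatocytes and 150.1 and 28.6 FPKM in tissue. In each of these 4 members every hepatocyte-like library lay under every liver library, and both fibroblast libraries were listed at 0.

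The remaining pericentral members, Cyp3a11 and Cyp2a5, did not pass. Cyp2a5, the coumarin hydroxylase, was at 235, 459, 69.2 and 2.74 FPKM in hepatocyte-like cells, 142 FPKM in the P24 library, 1162 and 100 FPKM in hepatocytes and 152 and 1076 FPKM in tissue, so that the groups overlapped (-2.23 ± 1.78, adjusted p = 0.315). Cyp2a4, a steroid 15-alpha-hydroxylase whose promoter is shown beside it above, was at 8.13, 15.5, 0.659 and 0 FPKM in hepatocyte-like cells, against 608 and 34.1 FPKM in hepatocytes and 32.3 and 542 FPKM in tissue. In all 4 hepatocyte-like libraries it was lower than Cyp2a5 on this per-length scale.

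Cyp2f2, the periportal member of the list and the naphthalene oxidase of lung club cells, was at 0.845, 0.373, 0 and 0.246 FPKM in hepatocyte-like cells against 275 and 810 FPKM in hepatocytes and 743 and 219 FPKM in tissue (-8.47 ± 0.64 against hepatocytes, adjusted p = 1.24e-05). Of the 4 Cyp4a genes induced through PPAR-alpha, 3 were lower than in hepatocytes (7.54% of all genes), and none was higher. Cyp4a14, a fatty acid omega-hydroxylase, was listed at 0 in all 4 hepatocyte-like libraries against 369 and 282 FPKM in hepatocytes and 311 and 364 FPKM in tissue. It reached 1 FPKM in liver libraries alone, so the choice favours its call. Cyp4a10 was at 3.38 and 5.60 FPKM in hepatocyte-like libraries 1 and 2 and under 1 FPKM in libraries 3 and 4, against 1643 and 229 FPKM in hepatocytes and 263 and 1642 FPKM in tissue. Both were far under every liver library. Cyp4a32 was at 1.35, 0.606, 0 and 0 FPKM in hepatocyte-like cells against 43.1 and 4.81 FPKM in hepatocytes and 4.82 and 33.5 FPKM in tissue. The member not called, Cyp4a31, was at 4.63, 13.3, 0 and 0 FPKM against 16.3 and 3.27 FPKM in hepatocytes and 2.54 and 16.6 FPKM in tissue, and the ranges overlapped.

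Of the 3 Cyp2b genes induced through CAR, only Cyp2b9, listed at 0 in hepatocyte-like cells against 57.8 to 70.4 FPKM in the liver libraries, was lower than in both liver groups (7.54% and 7.94% of all genes). Cyp2b13, also listed at 0 in these cells, was at 6.91 and 0.686 FPKM in hepatocytes and 0.561 and 9.76 FPKM in tissue. It was called lower than in tissue, a call lost under scaling. Cyp2b9 and Cyp2b13 reached 1 FPKM in liver libraries alone. The choice favours their calls, so their levels are a description and no p is given. Cyp2b10, the standard reporter of CAR activation, was at 19.9, 36.4, 0.326 and 0.478 FPKM in hepatocyte-like cells against 2.75 and 4.65 FPKM in hepatocytes and 4.69 and 2.27 FPKM in tissue, with 2 libraries above and 2 below the whole liver range (0.44 ± 1.28, adjusted p = 0.792). That difference had no stable sign, at -0.51 under scaling and -0.42 without hepatocyte-like library 2. Within subfamily Cyp2d, Cyp2d26 was at 14.7, 32.3, 42.2 and 38.9 FPKM against 354 and 544 FPKM in hepatocytes and 614 and 332 FPKM in tissue. Cyp2d10 was at 44.3, 78.2, 8.46 and 5.46 FPKM in hepatocyte-like cells against 333 and 573 FPKM in hepatocytes and 809.8 and 321 FPKM in tissue. Both were called lower than in hepatocytes, with no overlap. Cyp2c70, which makes the muricholic bile acids of mice, was at 6.56, 5.03, 2.71 and 6.16 FPKM against 166 and 348 FPKM in hepatocytes and 282 and 159 FPKM in tissue (-5.35 ± 0.42, adjusted p = 1.55e-05).

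A further comparison set hepatocyte-like cells against embryonic fibroblasts, the starting cell type. Here 12 of the 63 members tested were higher (11.4% of all 15657 genes) and 2 lower (15% of all genes), and the median difference was 0.48 for the members and 0.08 for all genes. The counts are a description, since in the hepatic table Cyp1a1, Cyp2c55, Cyp2c65 and Cyp2d34 reached 1 FPKM in hepatocyte-like libraries alone. Cyp2s1 passed the filter through those libraries alone. Higher were Cyp1a1, Cyp2a5, Cyp2c55, Cyp2c65, Cyp2c68, Cyp2c70, Cyp2d10, Cyp2d26, Cyp2d34, Cyp2s1, Cyp3a13 and Cyp4f13. Among these Cyp2d26 was listed at 0 in both fibroblast libraries (4.95 ± 0.44, adjusted p = 4.79e-05), as were 38 of the 65 members. Cyp4f13 was at 22.6, 19.4, 17.9 and 23.7 FPKM in hepatocyte-like cells, 16.8 FPKM in the P24 library, 26.1 and 59.5 FPKM in hepatocytes, 63.6 and 26.7 FPKM in tissue and 7.44 and 8.73 FPKM in fibroblasts (1.26 ± 0.41 against fibroblasts, adjusted p = 0.0470). Its hepatocyte-like libraries differed little from each other and stood between the fibroblast and the liver libraries. Lower were Cyp1b1 and Cyp2f2. Cyp1b1 (chromosome 17, 79701537 to 79715061), a steroid and hydrocarbon oxidase of mesenchymal cells, was at 102 and 134 FPKM in fibroblasts and 2.74 FPKM in the P24 library. It was listed at 0 in 2 hepatocyte-like libraries and at 0.590 and 0.814 FPKM in the others. It was under 1 FPKM in the liver libraries too, so the choice favours this call and the levels are a description. Cyp2f2 was under 1 FPKM in all hepatocyte-like libraries, against 68.7 and 21.8 FPKM in fibroblasts (-4.90 ± 0.64, adjusted p = 0.000434).

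Both fibroblast libraries shared a flow cell (HH2TTALXX, per the titles) with hepatocyte-like libraries 3 and 4, and within it 14 members were higher (13.9% of all genes) and 2 lower (14.9%). Cyp1a1 and Cyp2a5 were not called there, Cyp2a5 at an adjusted p of 0.116. Cyp1a1 passed the filter on low values through hepatocyte-like libraries alone, so no p is given for it. Without fibroblasts 1, 6 members were higher (5.31% of all genes) and 1 lower (5.54%), and without fibroblasts 2 also 6 (5.14%) and 1 (5.17%), where fewer libraries enter the fit. Cyp1a1 and Cyp2d10 were then not called. Cyp2a5, with an adjusted p of 0.0399, was not called without fibroblasts 1 (0.199), without fibroblasts 2 (0.171), without any 1 of hepatocyte-like libraries 1, 2 and 3 (0.0652 to 0.0870) or under scaling (0.0585). Cyp4f13 was not called without either fibroblast library (0.258 and 0.192) or any 1 hepatocyte-like library (0.0592 to 0.0918).

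The 4 hepatocyte-like libraries did not hold the same P450s. Libraries 1 and 2, from flow cells of their own, were both above libraries 3 and 4 for 20 of the 38 members at 1 FPKM or more in these cells, against 23.8% of the 15043 genes at that level. They were both below for 8 members, against 26.3% of these genes. The 20 included all 6 Cyp4a members but Cyp4a14, Cyp3a11, Cyp3a25, Cyp3a44 and Cyp3a59 of the Cyp3a cluster, and Cyp2a5, Cyp2b10 and Cyp2c29. The 8 included Cyp2c65, Cyp2d26, Cyp2d34, Cyp2j6, Cyp4f14 and Cyp2w1, a P450 of the fetal gut, which was listed at 0 in libraries 1 and 2 and at 5.60 and 4.32 FPKM in libraries 3 and 4. The hepatocyte marker list moved with the first set (summed level 7810 and 6694 FPKM in libraries 1 and 2, 1466 and 2215 FPKM in libraries 3 and 4), and the XEN list with the second (128 and 72.1 FPKM, and 819 and 461 FPKM). Flow cell and these levels cannot be told apart in 4 libraries, and the split was not tested.

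The library labelled P24 was deposited as neuronal, and its markers went against that label. Of the 6 neuron markers 5 were listed and 2 reached 1 FPKM (summed level 6.95 FPKM, with Rbfox3 at 0), while all 10 hepatocyte markers did (summed level 3438 FPKM). Over the 65 members its log2(FPKM + 1) values correlated with hepatocyte-like libraries 1 to 4 at Pearson's r of 0.868, 0.792, 0.636 and 0.641, and with the 4 liver libraries at -0.083 to 0.119. These are descriptions across genes of single libraries, and the P24 table was normalised apart from the hepatic table. Of the 33 members at 1 FPKM or more in P24, 20 lay within the range of the 4 hepatocyte-like libraries, 9 above and 4 below it. Over the 13503 genes at that level in P24 and listed in both tables, 56.9% lay within, 29.8% above and 13.3% below, shares close to those of the members. Cyp3a11 led with 300 FPKM, followed by Cyp2c55 at 172 FPKM, Cyp2a5 at 142 FPKM, Cyp2s1 at 80.0 FPKM and Cyp1a1 at 64.1 FPKM. Cyp1a2 was at 52.1 FPKM, above every hepatocyte-like library (at most 2.11 FPKM) and between the liver libraries (35.8 to 547 FPKM). With 1 library there is no replicate and no test.

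Hepatocytes and tissue were compared to ask whether isolated cells differ from the organ. No member was called higher or lower, beside 0% of all genes higher and 0.00639% lower (limma). At an unadjusted p under 0.05 there were 2 members and 334 genes. Among the members, the libraries within each group differed more than the groups did. Hepatocytes 1 and hepatocytes 2 differed by 2 or more on the log2 scale for 26 of 55 members, against 4.8% of 10870 genes, and tissue 2 and tissue 1 for 26 of 55, against 4.19% of genes. Hepatocytes 1 and tissue 2 differed by that much for 0 of 55 members (0.331% of genes), and hepatocytes 2 and tissue 1 for 1 of 55 (1.64% of genes). P450 profiles were thus alike within these pairs, each of which joins a hepatocyte and a tissue library. The fit did not use these pairs, so the spread within each group entered it. The lack of calls therefore does not show that isolated cells and tissue are alike.

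**Figure D4:**
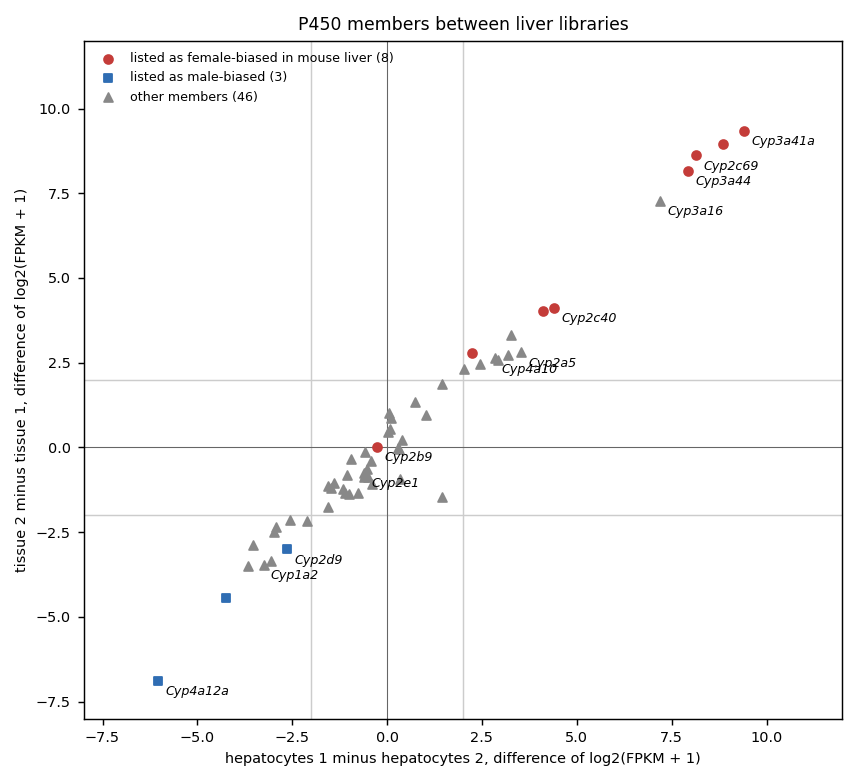
Difference of log2(FPKM + 1) between hepatocytes 1 and 2 (horizontal axis) and between tissue 2 and 1 (vertical axis) for each of the 57 members at 1 FPKM or more in a liver library, with grey lines at differences of 2. Of the 8 members listed as female-biased all but Cyp2b9 lie at the upper right, and the 3 listed as male-biased lie at the lower left.

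Most members listed as sex-biased were among those that separated these libraries. Of the 8 listed as female-biased in mouse liver, 7 were higher by at least 2 on the log2 scale in hepatocytes 1 than in hepatocytes 2 and in tissue 2 than in tissue 1. The exception was Cyp2b9, at 57.8 to 70.4 FPKM in all 4. Cyp3a41a was at 875 FPKM in hepatocytes 1 and 1142 FPKM in tissue 2, and at 0.293 FPKM in hepatocytes 2 and 0.757 FPKM in tissue 1. Cyp3a41b was at 594 and 808 FPKM in the first of these pairs and at 0.293 and 0.643 FPKM in the second, Cyp3a44 at 260 and 319 FPKM against 0.0620 and 0.118 FPKM, and Cyp2c40 at 188 and 208 FPKM against 7.90 FPKM in hepatocytes 2 and little more in tissue 1. The high and the low pair were far apart for each of them. Cyp2c69 was at 723 and 1011 FPKM in the first of these pairs and at 1.58 and 1.57 FPKM in the second. All 3 members listed as male-biased went the other way. Cyp4a12a, which makes the vasoactive lipid 20-HETE, was at 1.31 FPKM in hepatocytes 1 and 0.599 FPKM in tissue 2, and at 151 FPKM in hepatocytes 2 and 188 FPKM in tissue 1. Cyp4a12b, its close copy, was at 0.0260 and 0.110 FPKM in the first pair and at 18.3 and 23.4 FPKM in the second. The steroid hydroxylase Cyp2d9 was at 84.4 and 99.8 FPKM in the first pair and at 529 and 806 FPKM in the second.

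Members outside the sex-biased lists split the same way, among them Cyp3a16, known from the fetal liver (157 and 187 FPKM in hepatocytes 1 and tissue 2, 0.0717 and 0.205 FPKM in hepatocytes 2 and tissue 1), and Cyp4a10 (1643 and 1642 FPKM, and 229 and 263 FPKM). In all, 15 members were higher by 2 or more in hepatocytes 1 and tissue 2 and 11 in hepatocytes 2 and tissue 1. Cyp2e1 was not among them. Over all genes, 4.8% differed by that much between the hepatocyte libraries and 4.19% between the tissue libraries, in either direction. The share of genes past the limit in both at once was not computed. Transcripts of the sex chromosomes moved with the split. Xist was at 40.7 and 8.34 FPKM in hepatocytes 1 and tissue 2 and at 0.0243 FPKM or less in the other pair, and the Y-linked Eif2s3y at 0.714 FPKM and 0, against 24.2 and 22.8 FPKM. The labels used here give no sex. The fitted spread of these members within the hepatocyte and tissue groups holds this split. Cyp3a41a, Cyp3a41b, Cyp2c69 and Cyp3a44 were not called against hepatocytes, Cyp3a44 at an adjusted p of 0.312. The other 3 were not called although they were listed at 0 in every hepatocyte-like library. They reached 1 FPKM in liver libraries alone, so no p is given for them.

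The table of XEN-like cells was not used to choose the members. It lists 38 of the 65, of which 15 reached 1 FPKM in any of its 16 libraries and 12 passed the filter. In XEN-like colonies 1 of these 12 was higher than in fibroblasts (17.8% of all genes tested) and 4 were lower (16.8% of all genes tested), with a median difference of -0.73 for the members and 0.16 for all genes. Cyp1b1 was at 1.42 to 11.8 FPKM in the 8 colonies and 80.8 and 91.7 FPKM in fibroblasts (-3.62 ± 0.58, adjusted p = 0.000149), with no overlap. Also lower were Cyp2j6, an epoxygenase with broad expression (-1.81 ± 0.27, adjusted p = 8.30e-05), and Cyp4v3, a fatty acid hydroxylase (-1.57 ± 0.28, adjusted p = 0.000336). Cyp2d22, the remaining member called lower, was at 3.59 and 10.9 FPKM in fibroblasts. Among the other libraries of the table it reached 1 FPKM in colony 5 alone (1.42 FPKM). Cyp2d22 thus passed the filter through fibroblasts, and no p is given. The fits used a term for the flow cell.

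Cyp2s1, the leading P450 of hepatocyte-like libraries 3 and 4, was at 0.931 to 18.3 FPKM in the 8 colonies, at 1.10 to 4.56 FPKM in the XEN-like lines, at 1.39 FPKM in eXEN cells, and at 3.10 and 0.341 FPKM in fibroblasts. The colony and fibroblast ranges overlapped, and the call (1.67 ± 0.57, adjusted p = 0.0280) was lost without either fibroblast library (adjusted p of 0.0674 and 0.273) and without the flow cell term (0.0687). The 4 members at 1 FPKM or more in every colony were Cyp1b1, Cyp4f13, Cyp4f16 and Cyp4f17. Cyp4f13 was at 7.99 to 23.3 FPKM in colonies against 4.59 and 9.78 FPKM in fibroblasts, a difference of 0.89 ± 0.34 (adjusted p = 0.0484) that fell short of the required size, and it was called without colony 6 (adjusted p = 0.00699). Of the members above 100 FPKM on average in the liver libraries, those listed here did not exceed 1.42 FPKM in any colony. In fibroblasts 2, Cyp2d22 was at 10.9 FPKM and Cyp2f2 at 7.56 FPKM. Cyp2c55 did not exceed 1.51 FPKM, and Cyp1a1 did not exceed 2.10 FPKM.

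**Figure D5:**
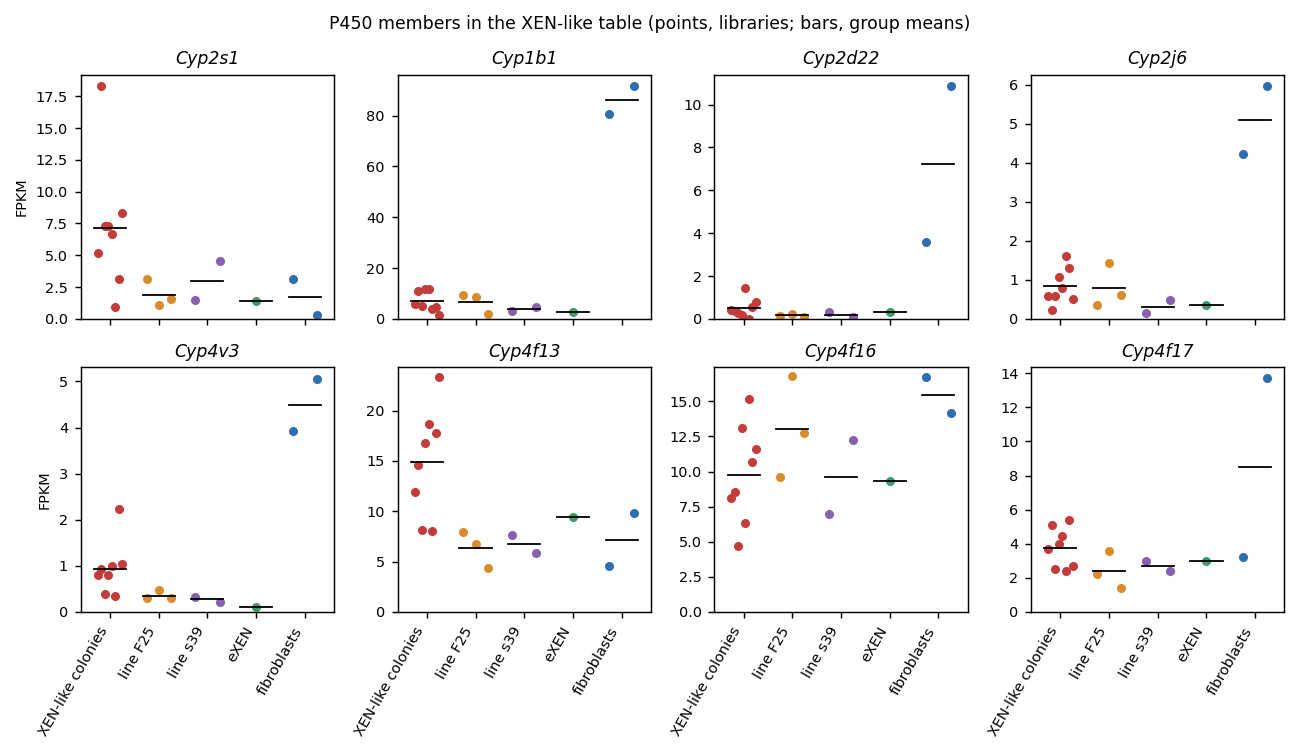
FPKM of 8 members in each library of the XEN-like table, with a panel per gene, points for libraries and bars for group means. Cyp1b1, Cyp2d22, Cyp2j6 and Cyp4v3 are lower in all 8 colonies than in both fibroblast libraries, while Cyp2s1, Cyp4f13, Cyp4f16 and Cyp4f17 overlap between colonies and fibroblasts.

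Of the members, 16 reached 1 FPKM in any library of the neuronal tables. Cyp1b1 was at 24.9 and 40.8 FPKM in the TauEGFP colonies of the 2 tables, 18.7 FPKM in neuronal cells induced with FICB, 0.213 and 11.6 FPKM in primary neurons, 2.21 FPKM in brain and 120 FPKM in fibroblasts. Cyp4f16 lay between 3.90 FPKM in brain and 32.4 FPKM in the FICB library. Cyp2s1 was at 13.5 FPKM in TauEGFP colonies 1 and at 0.961 FPKM in TauEGFP colonies 2. Each table was normalised on its own and gives 1 library per group, so no test was made.

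Genes that serve the P450s were described by lists of the pathway. None of the 7 redox partner genes was called between hepatocyte-like cells and hepatocytes (median difference -0.46), but after scaling 5 were lower (15.2% of all genes), among them Cyb5a, and the median was -1.76. Por, the reductase that supplies electrons to all members, was at 334, 213, 124 and 335 FPKM in hepatocyte-like cells against 427 and 163 FPKM in hepatocytes and 213 and 429 FPKM in tissue, with overlapping ranges. After scaling the ranges of Por no longer overlapped (at most 232 FPKM in hepatocyte-like cells, at least 237 FPKM in the liver libraries). Of the 8 genes of heme synthesis only Alad was lower than in hepatocytes (-1.85 ± 0.35, adjusted p = 0.00221), beside 7.54% of all genes. None was higher (41.3% of all genes), and after scaling 5 were lower (15.2% of all genes). Of 15 regulators, 10 were lower than in hepatocytes (7.54% of all genes) and none higher (41.3%), with a median difference of -1.89, while 6 were higher (11.4% of all genes) and 1, Ahr, lower (15%) than in fibroblasts. Nr1i3 (CAR), the receptor that induces Cyp2b10, was at 0 to 0.325 FPKM in the hepatocyte-like libraries against 80.6 and 113 FPKM in hepatocytes and 79.8 and 45.9 FPKM in tissue. Nr1i2 (PXR), which induces Cyp3a11, was at 6.08, 5.38, 7.60 and 6.29 FPKM in hepatocyte-like cells against 25.6 and 21.3 FPKM in hepatocytes and 23.8 and 23.0 FPKM in tissue, and was listed at 0 in both fibroblast libraries (-1.74 ± 0.26 against hepatocytes, adjusted p = 0.000537).

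Hnf4a, a main activator of liver P450 genes, was at 48.3, 59.6, 38.6 and 89.8 FPKM in hepatocyte-like cells against 163 and 155 FPKM in hepatocytes and 148 and 172 FPKM in tissue (-1.48 ± 0.33, adjusted p = 0.00450). Ppara, which induces the Cyp4a genes, was at 0.150 to 1.30 FPKM against 31.4 and 32.3 FPKM in hepatocytes. Cyb5a, the cytochrome b5 that passes electrons to some members, was at 1824, 2112, 422 and 399 FPKM in hepatocyte-like cells against 1252 and 1587 FPKM in hepatocytes and 199 and 162 FPKM in fibroblasts, and it was higher than in fibroblasts (2.31 ± 0.69, adjusted p = 0.0332). Of the 15 genes of other P450 families that could be tested, 6 were lower (7.54% of all genes) and 2 higher (41.3%) than in hepatocytes. After scaling 6 were lower (15.2% of all genes) and 1 higher (15.6%). The lower ones included Cyp7a1 and Cyp8b1 of bile acid synthesis. Cyp11a1, which cleaves the side chain of cholesterol at the start of steroid synthesis, was at 43.1, 20.1, 26.4 and 29.0 FPKM in hepatocyte-like cells and 46.7 FPKM in the P24 library, listed at 0 in all 4 liver libraries, and under 1 FPKM in both fibroblast libraries.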

How the data were processed

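Expression was measured in 34 libraries, of which the 10 of the hepatic table, the P24 library and the 16 of the XEN-like table carry most results. The authors deposited FPKM, a unit that 1 table header names and that the values of the other tables fit. The submitters' processing notes name TopHat2 and mm10, and the version, counting tool and strand setting are not given in the sources used here. The kit used, per the labels' protocols, does not mark strand, so overlapping antisense transcripts cannot be separated. FPKM are scaled to library size, which lets a few very high genes lower all others, hence the median-ratio alternative. Rows with repeated identifiers (118 in the hepatic table and 99 in the first neuronal table) and 1 row with an empty cell were dropped.

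Groups follow the labels. Genes at 1 FPKM or more in at least 2 libraries of a table were fitted as log2(FPKM + 1) with limma 3.58.1 in R 4.3.3, with a trended empirical Bayes variance, 1 model per table and, in the XEN-like table, a flow cell term. P-values are two-sided and Benjamini-Hochberg adjusted over all genes tested, and the models were tested on simulated data. No count test applies to FPKM, and no floor or interval was computed, since total counts are unknown. The shared replicate numbers of the XEN-like table come from figure panels and were not taken as pairs. The members, gene lists, tests and alternatives were chosen with earlier results of these data known. By the rule for named genes any member may be named, and values by library are given for the label genes, members that average 10 FPKM or more in hepatocyte-like cells, fibroblasts or P24, the 12 highest in liver and the role lists. Other examples were picked after their values were seen. Positions and transcripts come from GENCODE vM21, and promoters from RefSeq (GRCm38.p6).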

Additional observations from a re-analysis of the deposited data

Results flagged for a closer look

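In 4 cases 1 library stood apart from its group by Dixon's ratio, the gap of the extreme value to its nearest neighbour over the group's range, among 38 members looked at in the 4 hepatocyte-like libraries and 9 in the 8 XEN-like colonies. Chance alone gives about 1 in 20 such groups. Cyp2s1 was far higher in hepatocyte-like library 4 (783 FPKM) than in the others (112 to 205 FPKM), with a ratio of 0.862. Cyp2s1 also stood apart in XEN-like colony 2 (18.3 FPKM against at most 8.29 FPKM in the other colonies, ratio 0.576). Cyp4v3 was highest in XEN-like colony 7 (2.23 FPKM against at most 1.04 FPKM, ratio 0.629). Cyp2g1, an olfactory steroid hydroxylase, was at 1.56 FPKM in hepatocyte-like library 2 and listed at 0 in the other 3, a ratio of 1.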

How the results depend on the processing

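Another pseudocount (0.1 FPKM), no filter on low values, median-ratio scaling, the compared groups alone, and leaving out each library were tried. No called difference of a followed member changed sign. The counts that follow are of members alone. Calls over all genes changed between fits as well, so these counts do not measure how stable the members are beside other genes. The number of members called between hepatocyte-like cells and hepatocytes was 40 and lay between 37 and 44 without any 1 library, and against tissue it was 41 and lay between 37 and 45. Against fibroblasts it was 14, with 7 without fibroblasts 1, 7 without fibroblasts 2, and 12 to 14 without a hepatocyte-like library (range of all, 7 to 14). Between hepatocytes and tissue it was 0 throughout. Between XEN-like colonies and fibroblasts it was 5, lay between 4 and 6 without any 1 library, and was 3 with the replicate block, where fewer libraries enter the fit. Colony 1 and fibroblasts 1 deviated from their group means together (r = 0.264 across 14012 genes, which are not independent), and colony 2 and fibroblasts 2 in opposite ways (r = -0.200), so the shared numbers were not taken as pairs. Of the single members followed through the alternatives, 26 values fell short of the threshold that the reported value passed and 17 passed where the reported value did not. Those were Cyp1a1, Cyp2a5, Cyp2d10, Cyp2s1 and Cyp4f13 on one side and Cyp3a11, Cyp3a25 and Cyp4f13 on the other, and beyond the smaller number of libraries the cause was not tested. Cyp4f13 against hepatocytes was -0.90 (adjusted p = 0.0936), and -2.18 (0.00112) under scaling. Scaling changed the mean summed level of the members in fibroblasts to 160 FPKM. It also turned the balance of calls over all genes against tissue, to 2354 higher and 2627 lower. In 34 cases the sign of an uncalled difference turned. Against hepatocytes, Cyp2b10 was at -0.00775 with the other pseudocount, -0.51 under scaling and -0.42 to 1.19 without any 1 library, and Cyp3a13 at -0.34 to 0.33. Against tissue, scaling gave Cyp2b10 -0.46, Cyp3a13 -1.19 and Cyp1b1 -0.0382, and leaving out libraries gave Cyp2b10 -0.32 to 1.28 and Cyp3a13 -0.17 to 0.49. Between hepatocytes and tissue, leaving out libraries gave Cyp2a5 -2.01 to 1.52, Cyp2b10 -0.30 to 0.50, Cyp2c55 -0.27 to 0.0627, Cyp2d10 -0.89 to 0.44, Cyp2d26 -0.48 to 0.40, Cyp3a11 -0.51 to 0.43, Cyp3a13 -0.10 to 0.43, Cyp4f13 -0.67 to 0.55 and Cyp4f16 -0.52 to 0.40. Between colonies and fibroblasts, Cyp1a1 was at 0.27 with the other pseudocount and -0.41 to 0.32 without any 1 library, and Cyp2d26 at -0.0354 to 0.22. Apparent depth limits members near 1 FPKM, where a value rests on few fragments.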
